A study of Mus musculus with 2 samples.

Results

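The receptors for 4 cytokines known to act on basophils or lymphocytes, thymic stromal lymphopoietin (TSLP), interleukin 7 (IL-7), IL-33 and IL-18, were followed through the 5 genes Crlf2, Il7r, Il1rl1, Il18r1 and Il18rap. These genes were taken by symbol from both count matrices, 5 of the 31053 genes listed there, and each symbol was found once. Their transcripts were compared between cells sorted from the bone marrow of FVB mice as E-cadherin+cKIT+ or as E-cadherin+cKIT-, and along the share of a cell's transcripts that came from Prss34, a serine protease gene of basophils. cKIT, the receptor for stem cell factor, marks progenitors and mast cells, and E-cadherin is an adhesion protein encoded by Cdh1.

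1 library of single cells was made from each sort, in which captured transcripts were counted from their 3' ends by unique molecular identifiers (UMIs). The labels give the strain as FVB, whereas the paper calls the mice wild-type in its text and Vav-iCre;mTmG in its legends, a line in which Cre recombinase is active in blood cells and switches a fluorescent reporter. The labels name no treatment and no age for either sort. Cells of several mice went into the sorts, and no record ties a cell to an animal. As no sort had a replicate, no test was made. The 95% intervals in brackets (exact Poisson for levels, exact binomial for ratios and shares) cover counting error only.

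The TSLP receptor joins the chain encoded by Crlf2 to the IL-7 receptor alpha chain encoded by Il7r, and the same alpha chain joins the common gamma chain (Il2rg) to form the receptor for IL-7. IL-33 is bound by ST2, the product of Il1rl1, which signals together with the product of Il1rap and also exists in a soluble form. IL-18 is bound by the product of Il18r1 and signals once the product of Il18rap joins it. The receptors for TSLP and IL-7 act through Janus kinases and STAT5, those for IL-33 and IL-18 through MyD88 and the IRAK kinases. Basophils are known to respond to TSLP, IL-33 and IL-18, and IL-7 is best known for its role in lymphocyte development.

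Il1rl1, Il18r1 and Il18rap lie side by side on the forward strand of chromosome 1 (GRCm38). Il1rl1 spans 40429570 to 40465415, Il18r1 follows after 136 bases from 40465552 to 40500854, and Il18rap follows after another 14507 bases from 40515362 to 40551705. Il7r lies on the reverse strand of chromosome 15 from 9505788 to 9530176, and Crlf2 on the reverse strand of chromosome 5 from 109554709 to 109558993. None of the 5 overlaps another annotated gene. Il1rl1 has 5 annotated protein-coding transcripts with 5 different ends, so a count per gene does not separate the membrane form of ST2 from the soluble one.

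Sequences before the start sites are shown for Il7r, Il18rap and Il18r1, which were higher in cKIT- cells, and for Il1rl1, which lies beside the Il18r1 gene and stood at a similar level in both sorts. They were read 5' to 3' on the gene's strand from RefSeq promoter windows (GRCm38.p6), which were found for 5 of 5 genes, and only bases before the start and outside annotated untranslated regions are given. Capitals mark matches to 5 motifs described with the counts that follow. The Il7r sequence lies upstream of its protein-coding transcripts, which start at 9529835 and 9529828, but within the span of the gene. A transcript of Il7r not annotated as protein-coding starts further upstream, at 9530176. For Il18r1 the first sequence is the whole gap after Il1rl1. The second lies upstream of its long transcripts but does not reach their start at 40466006, since a shorter transcript starts at 40465970. In the order printed the sequences cover chr15:9529877-9530126 on the reverse strand, and chr1:40515112-40515361, chr1:40465416-40465551, chr1:40465811-40465969, chr1:40429320-40429569 and chr1:40439379-40439626 on the forward strand.
Il7r: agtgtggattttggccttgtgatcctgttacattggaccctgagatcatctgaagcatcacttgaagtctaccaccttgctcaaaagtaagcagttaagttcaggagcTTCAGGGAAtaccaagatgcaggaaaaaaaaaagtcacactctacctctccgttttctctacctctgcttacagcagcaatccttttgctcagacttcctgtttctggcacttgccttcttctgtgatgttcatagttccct
Il18rap: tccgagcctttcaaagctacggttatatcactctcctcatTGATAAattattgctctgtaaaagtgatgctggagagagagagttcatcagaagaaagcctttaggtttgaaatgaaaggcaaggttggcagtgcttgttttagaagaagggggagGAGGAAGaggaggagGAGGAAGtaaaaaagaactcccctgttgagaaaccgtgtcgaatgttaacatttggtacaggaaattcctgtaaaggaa
Il18r1, gap after Il1rl1: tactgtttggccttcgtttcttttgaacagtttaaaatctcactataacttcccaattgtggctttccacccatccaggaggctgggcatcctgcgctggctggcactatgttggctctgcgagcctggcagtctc
Il18r1, long transcripts: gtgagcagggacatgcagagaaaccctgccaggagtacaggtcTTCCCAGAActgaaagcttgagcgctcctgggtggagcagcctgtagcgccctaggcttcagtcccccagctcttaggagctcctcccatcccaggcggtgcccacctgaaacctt
Il1rl1, upstream start: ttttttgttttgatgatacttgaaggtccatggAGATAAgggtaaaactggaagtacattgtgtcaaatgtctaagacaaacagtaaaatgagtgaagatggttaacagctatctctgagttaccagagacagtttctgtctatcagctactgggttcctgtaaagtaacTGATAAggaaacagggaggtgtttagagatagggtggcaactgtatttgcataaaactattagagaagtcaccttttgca
Il1rl1, downstream start: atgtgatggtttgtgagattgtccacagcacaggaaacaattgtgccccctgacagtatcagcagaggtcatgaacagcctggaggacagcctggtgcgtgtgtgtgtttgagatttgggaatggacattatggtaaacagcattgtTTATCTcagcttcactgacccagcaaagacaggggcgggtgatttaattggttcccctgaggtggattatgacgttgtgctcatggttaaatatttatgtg

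The motifs were read on both strands. The GATA motif AGATAA is held by 9.99% of 32851 promoter windows of 250 bases and the related TGATAA by 7.94%. The PU.1 motif GAGGAAG is held by 10.6% of the windows, the RUNX motif TGTGGT by 14.0% and the STAT motif TTCNNNGAA by 7.02%. Il7r had 1 match, to the STAT motif, 142 bases before the start. Il18rap had 3 matches, 1 to a GATA motif at 210 bases and 2 to the PU.1 motif at 94 and 79 bases before the start. The gap of 136 bases before Il18r1 had 0 matches. The stretch of 159 bases upstream of its long transcripts had 1, to the STAT motif, 152 bases before their start. In promoter windows cut to the 136 bases nearest the start 23.7% hold any of the 5 motifs, and in those of 250 bases 40.2% do. In those cut to the nearest 159 bases 4.33% hold the STAT motif, though the printed 159 bases of Il18r1 lie further from the start. Il1rl1 had GATA matches at 217 and 80 bases before the upstream start and at 103 bases before the downstream start. Crlf2, whose sequence is not printed, had 2 matches in 250 bases, to the RUNX motif at 236 and the PU.1 motif at 80 bases before the start. No match overlapped another, and each match describes letters alone.

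After the cell filter of the paper, 6479 cKIT+ and 3662 cKIT- cells were analysed, with medians of 13039 and 4416.5 UMIs. Levels are in CPM, a gene's UMIs relative to the summed UMIs of the same cells. Kit was at 37.1 CPM among cKIT+ cells and 0.875 CPM among cKIT- cells, and Cdh1 at 62.8 and 193 CPM. Prss34 was at 11081 and 40691 CPM, and clusters called basophil-like from marker genes held 2995 cKIT+ cells (46.2%) and 3113 cKIT- cells (85.0%). Of the cell barcodes, 10 were found in both sorts.

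Il7r, Il18r1 and Il18rap were many-fold higher in cKIT- than in cKIT+ cells, Crlf2 was higher by less than 2-fold, and Il1rl1 stood at nearly the same level. Il7r had 396 UMIs, or 4.35 CPM (3.93 to 4.80), among cKIT+ cells, compared with 1728 UMIs, or 75.6 CPM (72.0 to 79.2), among cKIT- cells, a ratio of 17.4 (15.6 to 19.4). Crlf2, whose product pairs with that of Il7r, was at 137 CPM (134 to 139) and 235 CPM (229 to 242), a ratio of 1.72 (1.66 to 1.77). The partner chains of the TSLP receptor thus differed to unequal degrees between the sorts.

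Il18r1, the IL-18 binding chain, was at 4.69 CPM (4.25 to 5.15) among cKIT+ cells, compared with 72.9 CPM (69.4 to 76.5) among cKIT- cells, a ratio of 15.6 (14.0 to 17.3). Its signalling partner Il18rap was at 59.7 CPM (58.2 to 61.4) and 315 CPM (307 to 322), a ratio of 5.27 (5.08 to 5.46). Both chains of the IL-18 receptor were therefore higher on the cKIT- side. Il1rl1, the IL-33 receptor gene next to them, was at 40 CPM (38.7 to 41.3) and 46.4 CPM (43.7 to 49.3), a ratio of 1.16 (1.08 to 1.24), which was 0.967 when basophil-like clusters alone were compared.

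Against these values, 9.06% of 8023 genes that reached 10 CPM in a sort were higher by 2-fold or more in cKIT- cells, and 7.30% were lower by as much. Of the 5 receptor genes, 3 passed 2-fold upward and 0 downward. A larger ratio was found for 18 genes in the case of Il7r, 23 in that of Il18r1, 109 in that of Il18rap, 1058 in that of Crlf2 and 3060 in that of Il1rl1. The median log2 ratio of the 8023 genes was 0.03.

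**Figure D1:**
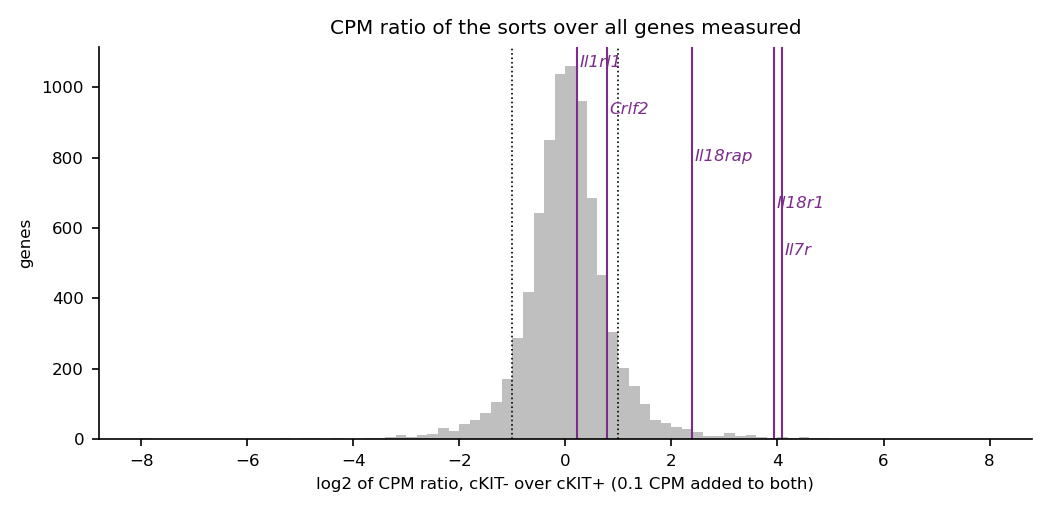
Number of genes (vertical axis) by log2 ratio of CPM in cKIT- over cKIT+ cells (horizontal axis) for 8023 genes, with purple lines at the 5 receptor genes and dotted lines at 2-fold. Il7r and Il18r1 lie in the sparse right tail at log2 ratios of 4.12 and 3.96, Il18rap at 2.40, Crlf2 at 0.78 and Il1rl1 near the centre at 0.22.

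CPM relates a transcript to the other RNA of the cell, and cKIT+ cells yielded more UMIs each. Counted per cell, Crlf2 had 1.92 UMIs in cKIT+ and 1.47 in cKIT- cells, and Il1rl1 had 0.563 and 0.290, so that both were lower in cKIT- cells on this scale. Il7r (0.0611 and 0.472 UMIs per cell), Il18r1 (0.0659 and 0.455) and Il18rap (0.840 and 1.96) were higher in cKIT- cells on both scales. The sorts also differed in the kinds of cell they held. In cluster 0, a basophil-like one, median UMIs were close, at 2745 in cKIT+ and 2975 in cKIT- cells. In cluster 7, another, they were 20778 and 10845.5. The parts of RNA per cell, sequencing depth and kinds of cell in the difference were not tested.

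The share of cells with a transcript was compared at an equal depth of 2000 UMIs per cell, which 6134 cKIT+ and 3486 cKIT- cells reached. Il7r was seen in 1.42% (1.14 to 1.75) of cKIT+ and 18.1% (16.8 to 19.4) of cKIT- cells. Il18r1 was seen in 1.12% (0.876 to 1.42) and 17.1% (15.9 to 18.4), and Il18rap in 11.7% (10.9 to 12.6) and 49.1% (47.5 to 50.8). The intervals of these 3 genes lay far apart between the sorts. Crlf2 was seen in 23.4% (22.3 to 24.5) and 34.9% (33.3 to 36.5), and Il1rl1 in 7.84% (7.18 to 8.54) and 8.41% (7.50 to 9.38), the latter with overlapping intervals.

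At full depth the shares in cKIT+ and cKIT- cells were 3.03% and 28.0% for Il7r, 5.19% and 31.5% for Il18r1, and 39.7% and 75.4% for Il18rap. For Crlf2 they were 72.4% and 61.9%, the opposite order to that at equal depth. For Il1rl1 they were 36.0% and 21.7%, whereas its intervals overlapped at equal depth. To gauge free RNA, the same shares were read in other cells. Progenitor-like cKIT+ cells with granulocyte/monocyte markers (median 25054.5 UMIs) showed Il7r and Il18r1 in 0 of 575 cells at 2000 UMIs, Il1rl1 in 1.22%, Il18rap in 0.870% and Crlf2 in 12%. Monocyte-like cKIT- cells (median 6531.5 UMIs) showed Il7r, Il1rl1, Il18r1 and Il18rap in 0 of 49 cells, with an upper limit of 7.25% for each, and Crlf2 in 8.16%. Over all their UMIs Il18rap, Il1rl1 and Il18r1 were at 7.81, 2.60 and 0 CPM. They were higher, at 28.6, 11.4 and 9.52 CPM (15, 6 and 5 UMIs), in 168 B cell-like cKIT- cells led by Ighd and Ms4a1. Prss34 was at 5557 CPM in these B cell-like cells and at 451 CPM in the monocyte-like ones.

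Cells were next ordered by the share of their own UMIs that was Prss34, in 6 groups cut at 0.1, 0.5, 1.5, 4 and 8%. Cells under 0.5% are called Prss34-low and cells with 1.5% or more Prss34-high. With more Prss34, Crlf2 was higher in both sorts, Il7r was lower in cKIT- cells, and Il18r1 and Il18rap were lower in cKIT- but higher in cKIT+ cells. These directions are those of CPM, and depth moved with Prss34, since cKIT- cells had a median of 2970.5 UMIs when Prss34-low and 8789 when Prss34-high, and cKIT+ cells 11792 and 14228.

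Il7r in cKIT- cells stood at 199, 234, 154, 59.8, 23.3 and 15.3 CPM from the lowest to the highest Prss34 group, which held 1418, 210, 183, 491, 1209 and 151 cells. The first 3 groups lay more than 2-fold above the last 3, and the ratio of Prss34-high over Prss34-low cells was 0.149 (0.133 to 0.165). Il7r in cKIT+ cells stood at 5.86, 1.65, 2.22, 3.17 and 4.77 CPM in the first 5 groups and had 1 UMI in the last, with 3286, 646, 773, 1269, 493 and 12 cells. Its ratio there was 0.695 (0.544 to 0.880), and the first group held 66 cells of B cell-like clusters, beside at most 1 in each other group.

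Il18r1 in cKIT- cells stood at 138, 179.9, 121, 61.9, 43.0 and 52.5 CPM, a high-over-low ratio of 0.332 (0.301 to 0.367). In cKIT+ cells it stood at 2.63, 2.12, 3.67, 7.06, 16.3 and 17.6 CPM (2 UMIs in the last group), a ratio of 3.71 (3.0 to 4.61) that was 1.59 at 2000 UMIs per cell. The direction was thus opposite in the sorts, and this was not tested.

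Il18rap had ratios on the same sides of 1 as its partner, though in cKIT- cells for CPM and not per cell. In cKIT- cells it stood at 396, 582, 495, 338, 254 and 250.1 CPM, a ratio of 0.642 (0.610 to 0.675), and in cKIT+ cells at 19.5, 41.8, 71.8, 112, 173 and 203 CPM, a ratio of 5.54 (5.19 to 5.92). Counted per cell, Il18rap had 1.39 UMIs in Prss34-low and 2.44 in Prss34-high cKIT- cells, which is higher with Prss34, and Il18r1 had 0.474 and 0.429, nearly the same. Il7r had 0.672 and 0.272 UMIs per cKIT- cell and was lower on both scales. At the equal depth of 2000 UMIs the Il18rap CPM ratio of cKIT- cells was 0.75 and that of Il18r1 0.367. The sorts lay far apart in Il18rap where Prss34 was scarce and close together where it was abundant.

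Crlf2 stood at 97.4, 149, 162, 177, 219.7 and 291 CPM in the cKIT+ groups and 156, 220.5, 224, 229, 265 and 274 CPM in the cKIT- groups, with ratios of 1.78 (1.72 to 1.85) and 1.56 (1.45 to 1.68). Il1rl1 stood at 26.2, 55.9, 52.2, 53.2, 51.9 and 44.1 CPM in the cKIT+ groups and 26.8, 41.9, 62.9, 52.6, 51.4 and 46.7 CPM in the cKIT- groups, with ratios of 1.71 (1.59 to 1.84) and 1.78 (1.5 to 2.12). The lowest group of Il1rl1 stood below the other 5 in both sorts, and it was the group with the smallest share of basophil-like cells, 21.0% in cKIT+ and 73.2% in cKIT- cells. Among basophil-like cells alone the Il1rl1 ratios were 0.995 (0.909 to 1.09) and 1.30 (1.09 to 1.56).

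**Figure D2:**
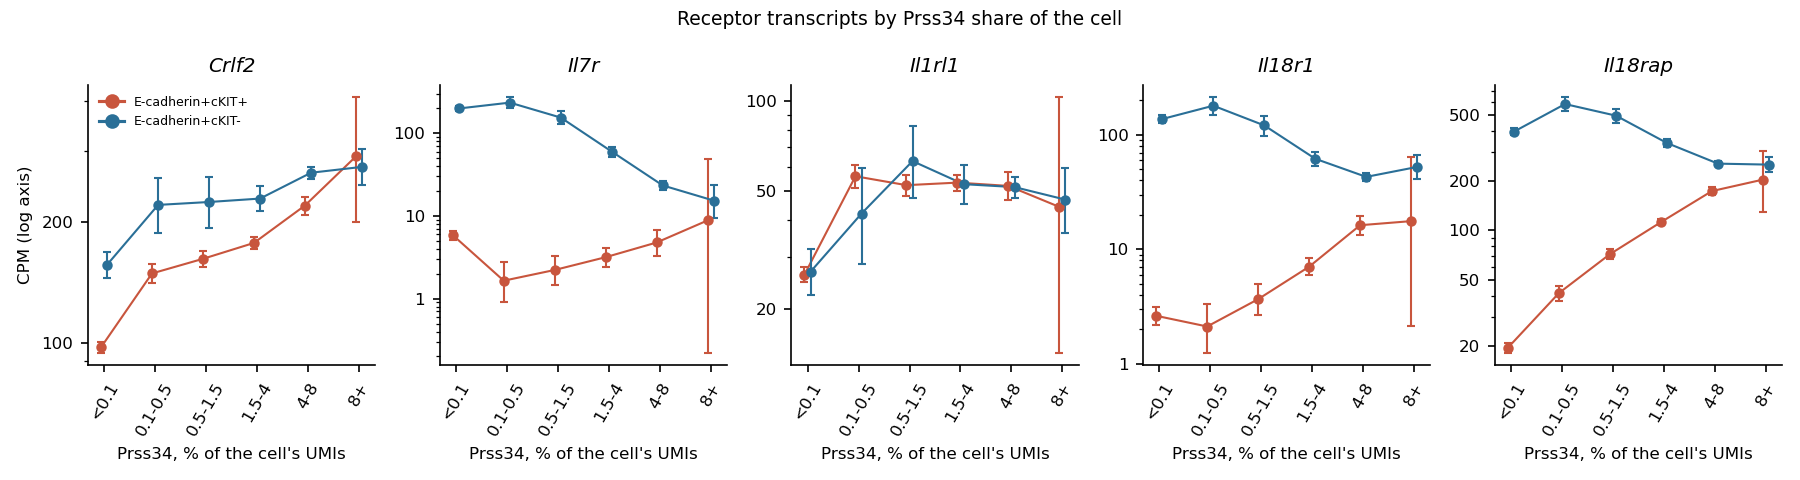
CPM on a log axis with 95% Poisson intervals (vertical) for each receptor gene in 6 groups of cells by Prss34 share of their UMIs (horizontal), E-cadherin+cKIT+ in red and E-cadherin+cKIT- in blue. For Il18rap the sorts stand at 19.5 and 396 CPM in the lowest group and at 203 and 250.1 CPM in the highest, while the Il1rl1 curves overlap.

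Among all genes measured, 3.01% of 7817 were 2-fold or more higher in the Prss34-high cKIT+ cells and 4.68% as much lower, and in cKIT- cells 9.60% and 12.1% of 8127. Il18rap passed 2-fold upward in cKIT+ cells, and Il7r and Il18r1 passed it downward in cKIT- cells. In cKIT+ cells Il7r and Il18r1 were under 10 CPM in both the high and the low cells and were left out of this count.

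At an equal Prss34 share the sorts still differed in Il7r, Il18r1 and Il18rap. In cells under 0.1% Prss34 the cKIT- over cKIT+ ratio was 33.9 (29.5 to 39.1) for Il7r, 52.4 (43.0 to 64.4) for Il18r1 and 20.3 (18.7 to 22.0) for Il18rap. At 0.1 to under 0.5% these ratios were 142 (82.4 to 265), 84.9 (51.7 to 148) and 13.9 (12.1 to 16.1), and at 0.5 to under 1.5% 69.4 (45.3 to 110.2), 32.9 (22.8 to 48.2) and 6.88 (6.11 to 7.75). At 1.5 to under 4% they were 18.9 (14.1 to 25.5), 8.77 (7.04 to 10.9) and 3.01 (2.80 to 3.23), and at 4 to under 8% they were 4.89 (3.39 to 7.29), 2.64 (2.15 to 3.28) and 1.47 (1.37 to 1.57). The Il18rap ratio was smaller at each step, while those of Il7r and Il18r1 were largest at 0.1 to under 0.5% and smaller in each group beyond it. Crlf2 had ratios from 1.21 to 1.61 over the first 5 groups. Those of Il1rl1 ran from 0.75 to 1.20, with intervals that held 1 in 5 of 5 groups. These ratios are over all kept cells, and under 0.1% Prss34 21.0% of cKIT+ and 73.2% of cKIT- cells were basophil-like. Among basophil-like cells of that group the ratios were 46.1 (35.4 to 60.9) for Il7r, 53.7 (38.8 to 76.3) for Il18r1 and 20.3 (17.9 to 23.1) for Il18rap. The Il1rl1 ratio of basophil-like cells at 0.5 to under 1.5% was 1.38 (1.01 to 1.85), and its intervals in the other groups held 1.

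Restriction to basophil-like clusters left these CPM directions of the IL-18 receptor genes in place. The high-over-low ratio of Il18r1 was 2.97 (2.17 to 4.13) in cKIT+ and 0.245 (0.221 to 0.271) in cKIT- cells, and that of Il18rap 3.83 (3.48 to 4.22) and 0.466 (0.443 to 0.491). At 2000 UMIs per cell, however, Il18r1 was seen in 17 of 982 (1.73%, 1.01 to 2.76) Prss34-low and 28 of 1490 (1.88%, 1.25 to 2.70) Prss34-high cKIT+ basophil-like cells, with overlapping intervals. Per cell, Il18rap had 1.78 UMIs in Prss34-low and 2.50 in Prss34-high cKIT- basophil-like cells, again the opposite of its CPM. Il7r had a ratio of 0.722 (0.518 to 1.01) in cKIT+ and 0.119 (0.107 to 0.133) in cKIT- cells. Of the genes measured in these cells, 1.93% were past 2-fold upward and 1.74% downward in cKIT+, and 14.6% and 10.2% in cKIT- cells. Il18rap was past it upward in cKIT+ cells, and Il7r, Il18r1 and Il18rap were past it downward in cKIT- cells.

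The basophil-like cells of the sorts lay mostly in different clusters, which had been formed without the receptor genes. Clusters 0 and 1 held 1995 of the 3113 cKIT- cells and 108 of the 2995 cKIT+ cells. Clusters 2, 6, 7 and 9 held 661, 569, 517 and 464 cKIT+ cells and 36, 4, 50 and 28 cKIT- cells, and clusters 3, 4 and 12 held 260, 290 and 126 cKIT+ and 389, 298 and 313 cKIT- cells. Cluster 0, led by Cd7, Ccl6 and Ccl4, held 1188 of the 1245 Prss34-low basophil-like cKIT- cells but 69 of the 992 such cKIT+ cells. Prss34-low cells of the sorts were therefore cells of different clusters.

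Il7r, Il18r1 and Il18rap were highest in cluster 0 in both sorts, among the basophil-like clusters with at least 20 cells. Its 73 cKIT+ cells had 266 CPM of Il7r, close to the 262 CPM of its 1311 cKIT- cells, a ratio of 0.988 (0.746 to 1.34). Il18r1 was at 146 and 200.2 CPM, a ratio of 1.37 (0.943 to 2.08), and Il18rap at 719 and 595 CPM, a ratio of 0.829 (0.698 to 0.991). Cells of cluster 0 thus carried these transcripts whichever sort they came from. In cluster 1, where Prss34 made up 3.79% of the UMIs of 35 cKIT+ and 4.65% of 684 cKIT- cells, Il7r was at 132 and 97.5 CPM, a ratio of 0.737 (0.491 to 1.16). Il18r1 was at 52.9 CPM (10 UMIs) and 110 CPM there, a ratio of 2.08 (1.12 to 4.37). The Il18rap ratio in cluster 1 was 0.814 (0.663 to 1.01).

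The 108 cKIT+ cells of clusters 0 and 1 held 43.7% of the Il7r UMIs of cKIT+ basophil-like cells, 12.3% of those of Il18r1 and 5.75% of those of Il18rap. Among the other 2887 cKIT+ basophil-like cells Il7r was at 2.09 CPM (1.70 to 2.55), and its high-over-low Prss34 ratio was 2.86 (1.59 to 5.54) in place of 0.722. The ratios of Il18r1 and Il18rap were 6.61 (4.22 to 10.9) and 5.20 (4.66 to 5.82) there. Among cKIT- cells, 5 Prss34-low basophil-like cells lay outside clusters 0 and 1, too few to measure the contrast. The opposite CPM directions of the IL-18 receptor genes along Prss34 thus rested, on the cKIT- side, on these 2 clusters.

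In clusters 3, 4 and 12, which held many cells of both sorts, the difference between the sorts was smaller than over all cells. In cluster 3, led by genes such as Cdc25b and Ube2c that act in mitosis, Il7r was at 6.49 CPM among cKIT+ cells and 27.4 CPM among cKIT- cells, a ratio of 4.23 (2.77 to 6.68). Il18r1 was at 21.4 and 43.5 CPM there, a ratio of 2.04 (1.58 to 2.65). The Il7r ratio was 2.19 (1.22 to 4.05) in cluster 4 and 1.76 (1.05 to 3.09) in cluster 12. That of Il18r1 was 2.84 (2.03 to 4.02) in cluster 4 and 2.44 (1.54 to 4.05) in cluster 12. Each remained above 1. Il18rap had ratios of 1.75 (1.60 to 1.91), 1.22 (1.10 to 1.36) and 1.17 (1.01 to 1.36) in clusters 3, 4 and 12, in which the Prss34 share of UMIs was also higher in cKIT- cells, for instance 5.84% against 4.0% in cluster 3. The sorts lay further apart in cluster 7, with 517 cKIT+ and 50 cKIT- cells. Its ratios were 4.21 (3.35 to 5.24) for Il18rap and 10.1 (5.00 to 19.7) for Il18r1. Prss34 made up 1.08% of the UMIs of its cKIT+ and 4.41% of those of its cKIT- cells. In clusters 2 and 9 the Il7r ratios were 6.77 (1.16 to 28.2) and 8.30 (1.83 to 31.0), from 3 and 4 cKIT- UMIs.

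Il1rl1 ranged over the basophil-like clusters from 36.0 CPM in cluster 9 to 74.1 CPM (40.5 to 124, 14 UMIs) in cluster 1 for cKIT+ cells. For cKIT- cells it ranged from 20.7 CPM (9.46 to 39.3, 9 UMIs) in cluster 9 to 67.0 CPM in cluster 3. Il7r ranged more widely, from 0.0954 CPM (1 UMI) in cluster 7 to 266 CPM in cluster 0 for cKIT+ cells. Crlf2 lay between 155 and 296 CPM for cKIT+ and between 198 and 283 CPM for cKIT- cells.

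**Figure D3:**
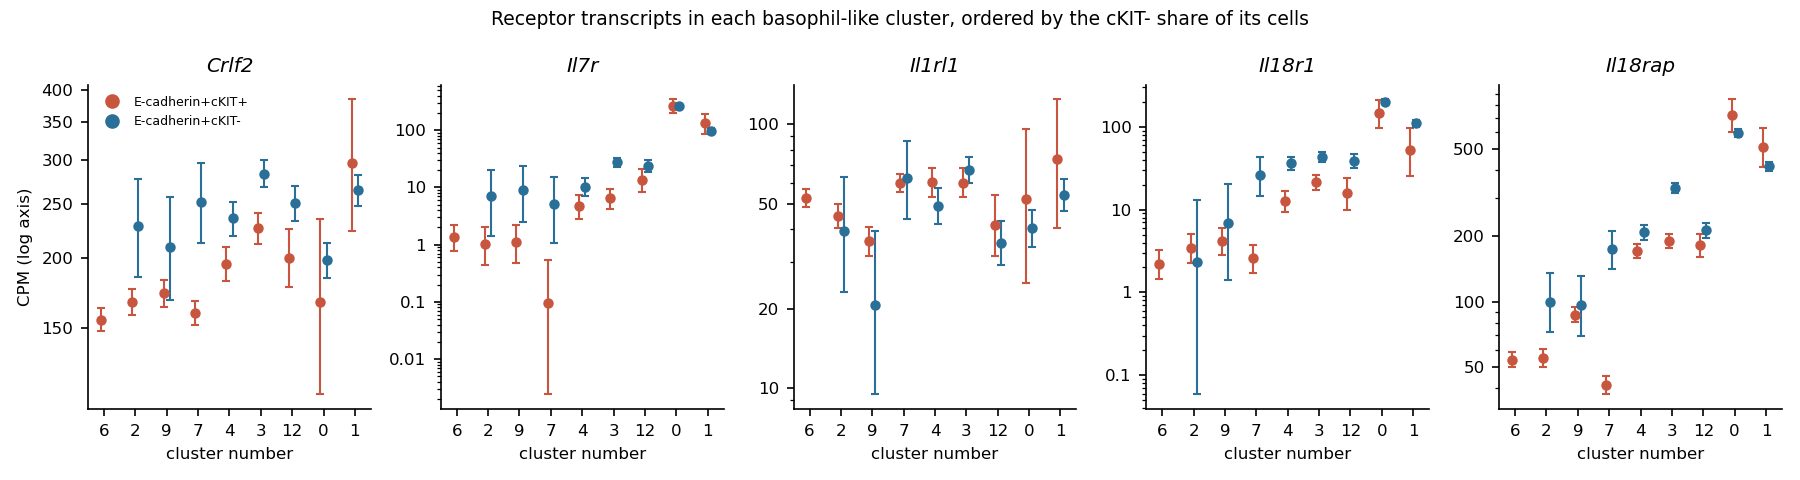
CPM on a log axis with 95% Poisson intervals (vertical) for each receptor gene in the 9 basophil-like clusters (horizontal, ordered by their share of cKIT- cells), with E-cadherin+cKIT+ cells in red and E-cadherin+cKIT- cells in blue where a cluster held at least 20 of them. Il7r reaches 266 and 262 CPM in cluster 0, while Il1rl1 stays between 20.7 and 74.1 CPM.

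Il7r, Il18r1 and Il18rap are also known from T cells, NK cells and innate lymphoid cells, so markers of these were read in the Prss34-low basophil-like cKIT- cells. Cd3e, Cd3g, Ncr1, Eomes, Il5, Areg, Il2ra, Pax5 and Ms4a1 were at 0 UMIs there, and Cd3d, Klrb1c, Klrd1, Klrg1 and Thy1 had 1 to 3 UMIs each. Gata3 had 8 UMIs and Il13 7. Of the B cell markers, Cd79b had 93 UMIs (24.8 CPM), Cd79a 10, Ebf1 2, and Vpreb1 and Vpreb3 1 each. Trbc2 (201 CPM), Lat (117 CPM), Nkg7 (82.3 CPM) and Rora (55.8 CPM) were present. In Prss34-high cells of the same kind these 4 were at 129, 129.7, 436 and 23.7 CPM. Of the T and NK cell markers, Cd3e, Cd3g, Ncr1 and Eomes were thus at 0 in the basophil-like cells in which Il7r and Il18r1 were high, whereas Trbc2, Lat and Nkg7 were not.

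Over the Prss34 groups of all cells, the summed level of 5 T cell markers lay between 84.5 and 213 CPM in cKIT+ and between 228 and 321 CPM in cKIT- cells. Trbc2 was the largest of these in each group except the highest cKIT- one, where Lat was. The 5 NK cell markers lay between 814 and 904 CPM and between 65.0 and 483 CPM. Nkg7 alone gave 814.1 of the lowest cKIT+ sum of 814.2 CPM and 483.0 of the highest cKIT- sum of 483.3 CPM. It gave 51.6 CPM of the lowest cKIT- sum. For 8 markers of type 2 innate lymphoid cells the range was between 9.59 and 23.9 CPM and between 23.3 and 58.2 CPM, and for 8 B cell markers between 41.1 and 134 CPM and between 53.4 and 1830 CPM. Rora was the largest of the type 2 innate lymphoid cell markers in each group. Cd79b gave 52.2 CPM of the lowest cKIT- B cell sum, and Cd79a 561.5 CPM of the highest. The part of these marker lists in the Prss34 contrasts was not tested.

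Outside the basophil-like clusters each receptor gene had a distribution of its own. Il7r was high in B cell-like cells led by Vpreb1 and Vpreb3, genes of the surrogate light chain of early B cells, at 389 CPM (329.7 to 455) in 53 cKIT+ and 231 CPM (176 to 299) in 67 cKIT- cells. The 53 cKIT+ cells held 154 of the 396 Il7r UMIs of that sort (38.9%), beside 174 (43.9%) in 2995 basophil-like cells. Among cKIT- cells, basophil-like clusters held 93.3% of the Il7r UMIs. In B cell-like cells led by Ighd and Ms4a1 Il7r was at 13.3 CPM in 168 cKIT- cells.

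Il7r had 0 UMIs in 265 eosinophil-like, 77 erythroid-like and 110 macrophage-like cKIT+ cells, and 3 UMIs in 576 progenitor-like ones. The cluster called dendritic cell-like had 45.4 CPM of Il7r in 109 cKIT+ and 194 CPM in 30 cKIT- cells. It also held genes of T and NK cells. In its cKIT+ and cKIT- cells Cd3g was seen in 10 and 2 cells, Ncr1 in 6 and 1, and Klrd1 in 42 and 19. Nkg7 was seen in 23 and 2, Klrb1c in 7 and 1, and Eomes in 3 and 0. Klrd1 was thus more widespread than the other NK cell markers, and the cluster's name does not describe each of its cells. Il7r was seen in 17 of its 109 cKIT+ cells. Of the NK cell markers, these 17 held 29 of 87 Klrd1, 16 of 117 Nkg7, 6 of 35 Ncr1, 5 of 13 Klrb1c and 0 of 6 Eomes UMIs. Of the T cell markers, they held 33 of 57 Trbc2, 18 of 41 Cd3g, 9 of 29 Cd3d, 7 of 20 Cd3e and 4 of 12 Lat UMIs. They also held 6 of 11 Gata3 and 7 of 14 Rora UMIs.

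Il1rl1 was at 87.0 CPM (77.9 to 96.8) in 437 cKIT+ cells of an unnamed cluster led by Gzmb, the granzyme B gene, and Cma1, a chymase gene of mast cells, beside 51.5 CPM in cKIT+ basophil-like cells. Il18rap was at 4.39 CPM, Il18r1 at 1.55 CPM and Il7r at 2.06 CPM in the same cluster. It thus combined high Il1rl1 with low IL-18 receptor transcripts. Il1rl1 was also at 93.8 CPM in 413 shallow eosinophil-like cKIT+ cells in which 7 of 10 basophil markers were on, and at 13.9 CPM in the deeper eosinophil-like cluster. In progenitor-like cells it was at 4.41 CPM, and it had 0 UMIs in 184 cKIT+ and 58 cKIT- neutrophil-like cells led by Retnlg and Mmp9.

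Il18rap was found in neutrophil-like cells with little Il18r1. It stood at 108 CPM in cKIT+ and 173 CPM in cKIT- cells led by Retnlg and Mmp9, and at 66.1 CPM in 264 cKIT+ cells led by Camp and Ngp. Il18r1 stood at 8.63, 11.8 and 5.58 CPM in these cells. Il18rap was higher in the shallow eosinophil-like cells, at 118 CPM in 413 cKIT+ and 605 CPM (465 to 774) in 40 cKIT- cells. In the unnamed cluster led by Atp6v0a1 and Hist1h2bc it was at 112 and 189 CPM. In both of these clusters 7 of 10 basophil markers were on. The shallow eosinophil-like cells had 6223 CPM of Prss34 in cKIT+ and 29727 CPM in cKIT- cells. In the 265 cKIT+ cells of the deeper eosinophil-like cluster Il18rap was at 7.70 CPM. In progenitor-like cells Il18rap was at 8.28 CPM and Il18r1 had 2 UMIs. The highest Il18r1 outside the basophil-like clusters was 52.8 CPM, in the dendritic cell-like cluster of cKIT+ cells.

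Crlf2 had UMIs in each class of at least 20 cells, from 22.0 CPM in erythroid-like cKIT+ cells to 248 CPM in cKIT- cells of an unnamed cluster led by Atp6v0a1 and Hist1h2bc. In that cluster 7 of 10 basophil markers were on, and its cKIT- cells had 47790 CPM of Prss34. Basophil-like cells had 172 CPM in cKIT+ and 246 CPM in cKIT- cells, and progenitor-like cells had 77.1 CPM. Il7r, Il1rl1, Il18r1 and Il18rap each had 0 UMIs in at least 1 such class.

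**Figure D4:**
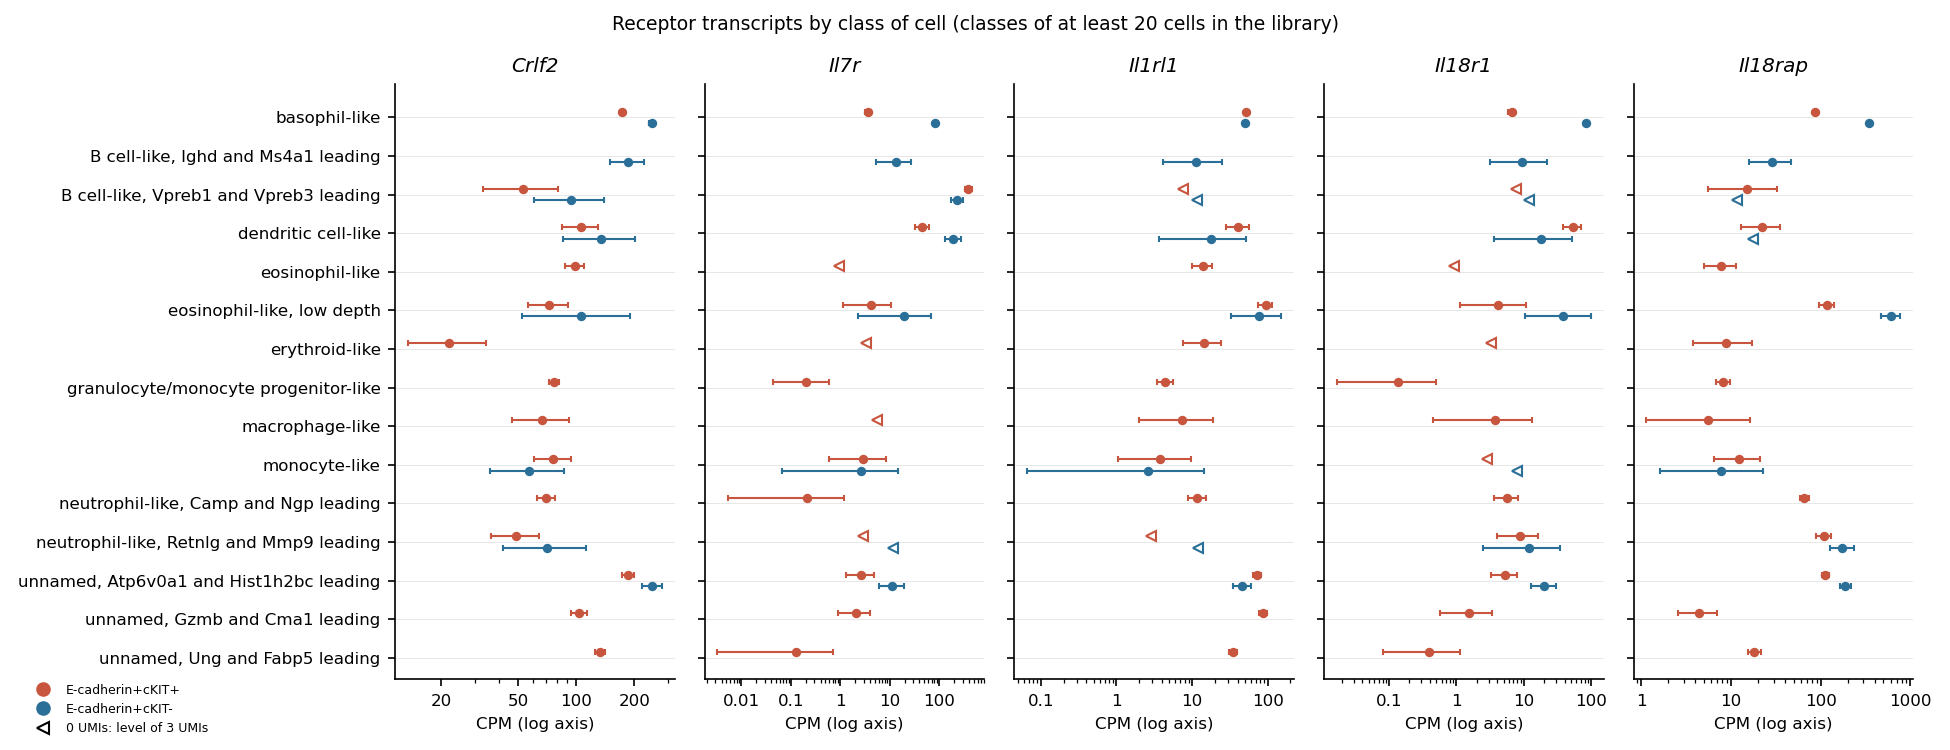
CPM on a log axis with 95% Poisson intervals (horizontal) for each receptor gene by class of cell (vertical), E-cadherin+cKIT+ in red and E-cadherin+cKIT- in blue, with open triangles at the level of 3 UMIs where 0 were counted. Il7r stands highest in the B cell-like cells led by Vpreb1 and Vpreb3 (389 and 231 CPM). Il18rap is seen in neutrophil-like cells at 66.1 to 173 CPM. It is at 605 CPM in the cKIT- cells of the eosinophil-like class of low depth and at 7.70 CPM in the deeper one.

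Single cells were then asked for combinations of the genes at 2000 UMIs. Of 2983 cKIT+ basophil-like cells, 53.0% showed none of the 5 genes, 37.7% showed 1 and 7.88% showed 2. Of 2976 cKIT- basophil-like cells, 18.3% showed none, 37.7% showed 1, 31.0% showed 2 and 11.1% showed 3. Combinations were thus seen more in cKIT- cells, as were Il7r, Il18r1 and Il18rap singly.

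In cKIT- basophil-like cells Il18rap was seen somewhat more often beside Il18r1. It was seen in 63.1% (59.1 to 67.0) of cells with Il18r1 and 52.6% (50.6 to 54.6) of cells without it. Among the Prss34-low ones the shares were 69.4% (64.5 to 74.1) and 66.1% (62.6 to 69.5), with overlapping intervals. In cKIT+ basophil-like cells the shares lay further apart, at 51.0% (36.3 to 65.6) of 49 cells with Il18r1 and 16.2% (14.9 to 17.6) of those without. Among the Prss34-low cKIT+ ones they were 58.8% (32.9 to 81.6) of 17 cells and 7.67% (6.07 to 9.53). Among the Prss34-high cKIT+ ones they were 50% (30.6 to 69.4) of 28 cells and 22.8% (20.7 to 25.1). Il18r1 was seen in 28.4% (24.8 to 32.2) of cKIT- basophil-like cells with Il7r and 17.6% (16.1 to 19.2) of those without. Within Prss34-low cells this difference was not seen, with 32.9% (28.4 to 37.6) and 33.6% (30.1 to 37.3).

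In Prss34-low cKIT+ basophil-like cells Il7r went with the IL-18 receptor genes. Il18rap was seen in 65.5% (45.7 to 82.1) of 29 cells with Il7r and 6.82% (5.30 to 8.61) of those without, and Il18r1 in 24.1% (10.3 to 43.5) and 1.05% (0.504 to 1.92). Clusters are mixed in this comparison, as 74 of the 992 Prss34-low cKIT+ basophil-like cells lay in clusters 0 and 1, where Il7r and the IL-18 receptor genes were high, and 14 of the 71 Il7r UMIs of these cells lay outside them. For Crlf2 and Il7r, the chains of the TSLP receptor, the shares were alike. Il7r was seen in 37.4% (32.3 to 42.7) of Prss34-low cKIT- basophil-like cells with Crlf2 and 37.6% (34.2 to 41.1) of those without. For Il1rl1, 19.1% (14.7 to 24.3) of cKIT- basophil-like cells with it and 20.3% (18.8 to 21.9) without it showed Il7r.

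Of 32 listed partner chains, ligands, decoys and signalling genes, 21 reached 10 CPM in a sort. Of these, 3 were 2-fold or more higher in cKIT- cells and 0 as much lower, beside 9.06% and 7.30% of all genes measured. They were Il1rap, the accessory chain of ST2 (7.61 and 18.0 CPM), Jak2, a kinase of the TSLP receptor (60.1 and 145 CPM), and Myd88, the adaptor of the IL-33 and IL-18 receptors (13.3 and 36.9 CPM). The median log2 ratio of the 21 genes was 0.50, beside 0.03 over all genes measured. Il2rg, the partner of Il7r in the IL-7 receptor, was at 47.8 and 85.0 CPM.

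Along Prss34, 0 of 20 measured partner genes passed 2-fold in either direction in cKIT+ cells, where 3.01% of all genes measured passed it upward and 4.68% downward. Over all cKIT- cells 4 of 23 were 2-fold or more lower with high Prss34 and 0 as much higher, beside 12.1% and 9.60% of all genes. They were Il1rap, Il1b, Stat6 and Irak2. Il1b had 65 UMIs in 15 cKIT- cells, with up to 15 in a cell, and was under 10 CPM among basophil-like cells. In cKIT- basophil-like cells 4 of 21 were 2-fold or more lower with high Prss34 and 0 as much higher, beside 10.2% and 14.6% of all genes. Among these, Jak2 and Stat5b passed 2-fold in the basophil-like cells only. Il1rap was at 41.9 CPM in Prss34-low and 13.6 CPM in Prss34-high cells, and Jak2 at 266 and 126 CPM. The signal transducers Stat5b and Stat6 were at 81.7 and 39.1 CPM and at 44.9 and 20.1 CPM. The median log2 ratio of the 21 genes was -0.51, beside -0.07 over the 7747 genes measured.

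Transcripts of the ligands were scarce. Tslp was at 6.42 CPM among cKIT+ cells and 0.831 CPM among cKIT- cells, Il18 at 3.39 and 1.84 CPM, and Il7 at 0.198 and 0.0875 CPM. Il33 had 2 UMIs in cKIT+ cells and 0 in cKIT- cells, which allows up to 0.131 CPM. Each of the 4 cytokines was thus under 10 CPM in both sorts and outside the count of partner genes above. Tslp was nevertheless above Il7r (4.35 CPM) and Il18r1 (4.69 CPM) in cKIT+ cells. Its cKIT- over cKIT+ ratio was 0.129 (0.0773 to 0.204).

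Over the 11 Prss34 groups with at least 20 cells, 8967 genes were ranked by how like their level, as log2(CPM + 1), was to that of each receptor gene. Crlf2 was most like Il3ra, the IL-3 receptor alpha chain (Pearson r = 0.993), then Ubald2 and Lag3. Il7r was most like Adam8 (r = 0.998), Mxd1 and Gpx4, and Il1rl1 most like Rnase12 (r = 0.958), Coro2a and Tsg101. Il18r1 was most like Gnai2 (r = 0.997), Sytl3 and Tpm4, and Il18rap most like Naprt (r = 0.996), Hcst and Grm6. Between receptor genes r was 0.953 for Il18r1 and Il18rap, 0.938 for Il7r and Il18r1, and -0.215 for Il7r and Il1rl1. The groups share libraries and depth, so these values describe likeness of pattern alone.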

How the data were processed

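UMI counts per gene and cell were deposited by the authors without normalization, for 1 library per sort (95477153 and 24033994 UMIs). Per the labels they were made with Cell Ranger 3.0.2 on mm10. The labels name version 2 of the 10x kit and the paper version 3. Following the paper, cells in the top or bottom 1% by number of genes or in the top 1% by UMIs were dropped, counting genes detected in at least 40 cells. Unlike there, rarer genes stayed in the levels and totals. CPM is UMIs over the total of a group of cells, and a count of 0 allows 3 counts.

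GENCODE M21 (GRCm38) held 30934 of the 31053 identifiers. Shares were compared after drawing 2000 UMIs per cell, leaving out 345 cKIT+ and 176 cKIT- cells. Seurat 5.3.0 (R 4.3.3) formed the clusters (2000 variable genes without the receptor genes, 15 principal components, resolution 1), which were named from marker lists. A marker counted as on from 20 CPM and 10% of its level in the cluster where it peaked. A class needed 3 markers on and more markers among the 10 leading genes than any other class. Failing that, basophil-like needed 5 of 10 on and no leading marker of another class.

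Scrublet in Scanpy 1.11.5 called 287 cKIT+ and 3 cKIT- cells as doublets, the second call being too small to rely on, and no doublet was removed. edgeR 4.0.16 gave TMM factors. Named genes are the receptors, fixed partner and marker lists, the 3 genes most alike and leading genes of clusters. 1 listed marker gene is not reported here. The genes and lists were chosen with earlier results of these data known.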

Additional observations from a re-analysis of the deposited data

Results flagged for a closer look

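Il18r1 and Il18rap were singled out because their Prss34-high over Prss34-low CPM ratio lay above 1 in the cKIT+ library and below 1 in the cKIT- library. The ratio of Il18r1 was 3.71 and 0.332, and that of Il18rap was 5.54 and 0.642. The difference between the libraries was not tested, as each is 1 library. Per cell, the cKIT- ratio of Il18rap was 1.75, above 1, and that of Il18r1 0.906, so the direction of Il18rap there holds for CPM and not per cell. Without clusters 0 and 1 both ratios over all classes lay above 1 in each library, at 4.95 for Il18r1 and 5.68 for Il18rap in the cKIT- library. There 5 Prss34-low basophil-like cells were then left, and the other Prss34-low cells were of other classes. Among basophil-like cells alone the cKIT- ratios were then 1.06 (0.292 to 8.78) for Il18r1 and 0.780 (0.493 to 1.32) for Il18rap, too few cells to give a direction.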

How the results depend on the processing

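No paired analysis was possible because each sort is 1 library. Of 204 recomputed values, 101 moved by less than counting error (counts of genes, by less than 1.5 times), 95 moved further and 8 lay on the other side of 1. Where a value moved, the cause was not tested. With the same weight for each cell, the ratio between the sorts was Crlf2 1.63, Il7r 11.5 and Il1rl1 0.983. In cells thinned to 2000 UMIs it was Crlf2 1.62, Il7r 11.6 and Il1rl1 1.06. In basophil-like clusters it was Crlf2 1.43, Il7r 22.0, Il1rl1 0.967, Il18r1 12.5 and Il18rap 3.98. Without the 10 most abundant genes it was Crlf2 1.83 and Il18rap 5.61. From UMIs per cell, a choice made after seeing the data, it was Crlf2 0.763, Il7r 7.72, Il1rl1 0.515, Il18r1 6.91 and Il18rap 2.34. For the Prss34-high over Prss34-low ratio, the highest against the lowest 20% of cells gave Crlf2 in cKIT+ 2.24, Il7r in cKIT+ 0.314, Il1rl1 in cKIT+ 2.37, Il18rap in cKIT+ 6.85, Crlf2 in cKIT- 1.72, Il7r in cKIT- 0.0756 and Il18rap in cKIT- 0.581. Basophil-like clusters gave Crlf2 in cKIT+ 1.31, Il1rl1 in cKIT+ 0.995, Il18r1 in cKIT+ 2.97, Il18rap in cKIT+ 3.83, Crlf2 in cKIT- 1.34, Il7r in cKIT- 0.119, Il1rl1 in cKIT- 1.30, Il18r1 in cKIT- 0.245 and Il18rap in cKIT- 0.466. Thinning to 2000 UMIs gave Il7r in cKIT+ 0.375, Il1rl1 in cKIT+ 1.34, Il18r1 in cKIT+ 1.59, Il18rap in cKIT+ 4.0, Il7r in cKIT- 0.214 and Il18rap in cKIT- 0.75. Leaving Prss34 out of the total gave Il18rap in cKIT- 0.679. Leaving out clusters 0 and 1, also chosen after seeing the data, gave Il18rap in cKIT+ 6.15, Crlf2 in cKIT- 2.40, Il7r in cKIT- 0.314, Il1rl1 in cKIT- 5.71, Il18r1 in cKIT- 4.95 and Il18rap in cKIT- 5.68. Counting UMIs per cell, chosen likewise, gave Crlf2 in cKIT+ 1.97, Il1rl1 in cKIT+ 1.88, Il18rap in cKIT+ 6.11, Crlf2 in cKIT- 4.26, Il7r in cKIT- 0.405, Il1rl1 in cKIT- 4.85, Il18r1 in cKIT- 0.906 and Il18rap in cKIT- 1.75. Shares of cells at 1000 UMIs were Crlf2 in cKIT+ 12.5%, Il7r in cKIT+ 0.917%, Il1rl1 in cKIT+ 4.28%, Il18r1 in cKIT+ 0.695%, Il18rap in cKIT+ 6.83%, Crlf2 in cKIT- 19.0%, Il7r in cKIT- 10.2%, Il1rl1 in cKIT- 3.69%, Il18r1 in cKIT- 9.52% and Il18rap in cKIT- 31.3%. With all UMIs they were Crlf2 in cKIT+ 72.4%, Il7r in cKIT+ 3.03%, Il1rl1 in cKIT+ 36.0%, Il18r1 in cKIT+ 5.19%, Il18rap in cKIT+ 39.7%, Crlf2 in cKIT- 61.9%, Il7r in cKIT- 28.0%, Il1rl1 in cKIT- 21.7%, Il18r1 in cKIT- 31.5% and Il18rap in cKIT- 75.4%. With at least 2 UMIs they were Crlf2 in cKIT+ 3.78%, Il7r in cKIT+ 0.456%, Il1rl1 in cKIT+ 0.603%, Il18r1 in cKIT+ 0.130%, Il18rap in cKIT+ 2.10%, Crlf2 in cKIT- 7.86%, Il7r in cKIT- 4.99%, Il1rl1 in cKIT- 0.545%, Il18r1 in cKIT- 3.01% and Il18rap in cKIT- 19.7%. With at least 50 CPM, 371 genes were at least 2-fold higher and 198 lower in the cKIT- library, against 727 and 586, and with at least 10 UMIs 1675 and 2500. Along Prss34, at least 50 CPM gave 125 higher and 84 lower genes in cKIT+ cells (235 and 366 in the report) and 328 and 371 in cKIT- cells (780 and 987), and basophil-like clusters gave 148 and 133 in cKIT+ cells. The CPM of basophil-like cells moved at resolution 0.5 to Crlf2 in cKIT+ 168, Il18r1 in cKIT+ 5.67, Il18rap in cKIT+ 79.7 and Il7r in cKIT- 77.2. With 30 principal components it moved to Crlf2 in cKIT+ 167, Il18r1 in cKIT+ 5.70, Il18rap in cKIT+ 80.4 and Il7r in cKIT- 76.9. Leaving out the 10 barcodes found in both libraries, also chosen after seeing the data, moved no ratio beyond its interval. Genes with few UMIs, such as Il7r and Il18r1 in cKIT+ cells, are limited by depth.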
